A study of Homo sapiens with 17 samples.

Results

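A set of 10 genes that code proteins with long acidic stretches was followed through an anti-ac4C RNA pull-down of HEK293T cells. They are PTMA, PTMS, SET, ANP32A, ANP32B, ANP32E, NAP1L1, HMGB1, NPM1 and NCL, chosen by symbol as acidic histone chaperones and nucleolar phosphoproteins, and they make up 10 of the 23368 genes of the count table. PTMA entered the set because it was the top gene of the WT IgG libraries, so its values in comparisons that use WT IgG are given as a description, with no test. All 10 passed the filter on low counts in every comparison.

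The method, acRIP-seq, pulls down poly(A) RNA with an antibody against N4-acetylcytidine (ac4C), a cytidine modification written by the acetyltransferase NAT10, and sequences the RNA that was recovered. HEK293T is a human embryonic kidney line that carries the SV40 large T antigen. The study asked whether the RNA-binding protein TDP43, coded by TARDBP, helps NAT10 to acetylate mRNA. The 17 libraries form 6 groups. WT cells, whose label names no control siRNA, gave 3 WT input libraries (poly(A) RNA before the pull-down), 3 WT IP libraries (anti-ac4C) and 2 WT IgG libraries (isotype control antibody), and cells given siRNA against TARDBP gave 3 libraries each of siTDP43 input, siTDP43 IP and siTDP43 IgG. The cells were not edited, so the knock-down is transient and partial, and the time between transfection and harvest is not tied to these libraries in the sources used here. The labels do not say whether replicates were separate cultures, so the tests measure the spread between libraries, which may be technical. WT and siTDP43 libraries may also have been made at different times, and such a batch and the knock-down cannot be told apart.

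Histone chaperones hold histones away from DNA and hand them on when nucleosomes are built or taken apart, and their runs of glutamate and aspartate bind the basic histones. Prothymosin alpha (PTMA) and parathymosin (PTMS) are small, unfolded, highly acidic nuclear proteins that bind linker histone. SET, ANP32A and ANP32B are acidic nuclear proteins of the histone acetylation-inhibiting family, and SET and ANP32A also inhibit protein phosphatase 2A. Nucleophosmin (NPM1) and nucleolin (NCL) are abundant nucleolar proteins needed for ribosome assembly.

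The acidic stretches were read from the GRCh37 (hg19) genome at the coding exons, and 30 bases are shown for 6 of the members because the set is defined by such stretches. Capitals mark the glutamate codons GAA and GAG, and lower case marks all other codons, among which gat and gac code aspartate. The lines run 5′ to 3′ on the coding strand.
PTMA, chr2:232576663-232576692, plus strand: GAGGAAGAGGAGGAGGAAGAAGAAggtgat
PTMS, chr12:6879325-6879354, plus strand: GAGGAAGAAGAAGAAGAGgatgatGAAggg
SET, chr9:131456208-131456237, plus strand: GAAGAAgatgatgatgatgatGAAGAGGAG
HMGB1, chr13:31035557-31035586, minus strand: GAAGAGGAGGAAgatGAGGAAgatGAAGAG
NPM1, chr5:170819939-170819968, plus strand: gatGAAgatgatgacgatgatgatGAAGAG
NCL, chr2:232326375-232326404, minus strand: GAGGAGgatGAGGAGgatgacGAGgacGAG
PTMA and PTMS had the highest shares of acidic codons among 19668 genes with a coding sequence, 48.2% and 46.1%, against a median of 11.4% over all genes. NCL held the longest unbroken acidic run of the set, 38 codons, followed by HMGB1 with 30 codons. NAP1L1 and PTMA held the shortest, 6 and 8 codons.

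The WT input libraries held 27718784 to 36583436 counts, the anti-ac4C libraries of WT 19615316 to 21066215 and the IgG libraries of WT 9022250 to 9466855. The corresponding siTDP43 groups held 24542434 to 31030950 (input), 8610070 to 15736165 (IP) and 3013989 to 3436811 counts (IgG). Levels are given as CPM, counts per 1000000 counts of a library size scaled by edgeR's TMM factors over all 17 libraries. TARDBP, the targeted gene, stood at 150, 157 and 151 CPM in WT input and at 98.6, 102 and 106 CPM in siTDP43 input, a log2 change of -0.57 ± 0.05 (SE). NAT10 stood at 50.6, 52.2 and 51.6 CPM in WT input and at 116, 108 and 111 CPM in siTDP43 input. Of the kidney and neuronal markers used to check the HEK293T label, NEFL and NEFM were at 65.2 and 66.1 CPM in WT input, while PAX2, LHX1 and INA were below 1 CPM there; of the markers of other cells, PTPRC, PECAM1 and HBB had no count in either input group, ALB had at most 4 counts in a library of either, and COL1A1, the 1 of these 5 that was tested between inputs, stood at 7.31 CPM in WT input and 1.70 CPM in siTDP43 input and was called lower, at -2.10 on the log2 scale. The part of other cells in the results was not tested.

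Taken as a group, the 10 genes supplied a larger share of the reads in the WT pull-downs than in WT input, and IgG held more than the anti-ac4C antibody. Of all WT input counts they took 0.951% ± 0.0296 (SD, n = 3), of WT IP counts 1.70% ± 0.0868 (n = 3) and of WT IgG counts 2.71% ± 0.178 (n = 2). The siTDP43 shares were 0.966% ± 0.0167 for input, 0.962% ± 0.0315 for IP and 0.769% ± 0.00842 for IgG (n = 3 each). The 2 input groups overlapped, and the 3 WT groups did not. The WT IgG share holds PTMA, which was chosen on it; the 9 other members took 0.725% to 0.753% of counts in WT input, 1.09% to 1.17% in WT IP, 1.55% to 1.62% in WT IgG, 0.771% to 0.793% in siTDP43 input, 0.672% to 0.679% in siTDP43 IP and 0.480% to 0.500% in siTDP43 IgG. PTMA alone made 1.03% and 1.21% of the counts in the WT IgG libraries, which placed it first, with RPL8 next at a mean of 0.828%. In WT input it was ranked 60 to 66, and in siTDP43 IgG, where RPL13 led with 0.974%, it was ranked 57 to 59.

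**Figure D1:**
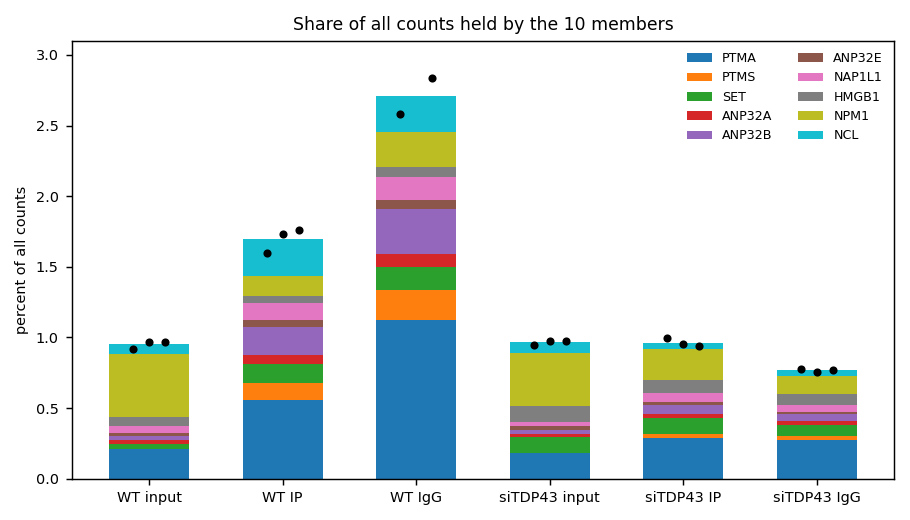
Share of all counts held by the 10 genes in each of the 6 groups, as a percentage. Bars are stacked group means per gene and black points are the summed share in single libraries; WT IgG reaches 2.71% with PTMA (blue) as its largest block, while the other groups lie between 0.769% and 1.70%.

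Per length, the members spanned a wide range in the same cells. In RPKM, the CPM divided by the exon length in kilobases, NPM1 was at 2317 ± 59.3 and PTMA at 1592 ± 122 in WT input, while PTMS was at 26.1 ± 0.767 (SD, n = 3). In WT IgG, PTMA was at 8582 ± 1051 RPKM, ANP32B at 1796 ± 91.0 and PTMS at 1746 ± 116 (n = 2). The highest group mean was WT IgG for 8 members, siTDP43 input for HMGB1 and WT input for NPM1. PTMA is among the 8, and it was chosen on WT IgG. The share of all genes with their highest mean in WT IgG was not computed. PTMS ranged most, 279-fold between siTDP43 input and WT IgG, and HMGB1 ranged least, 2.79-fold between WT IP and siTDP43 input. In the order of the 6 groups, the libraries of PTMS, ANP32B, NAP1L1 and NPM1 were apart at every step. How often that holds over all genes was not computed either, so it does not set these members apart. PTMA overlapped between siTDP43 IgG and siTDP43 IP and between the inputs, SET between WT IP and siTDP43 input, ANP32A between siTDP43 IgG and siTDP43 IP, ANP32E between siTDP43 IP and siTDP43 IgG, HMGB1 between siTDP43 input and siTDP43 IP, and NCL between WT IgG and WT IP.

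**Figure D2:**
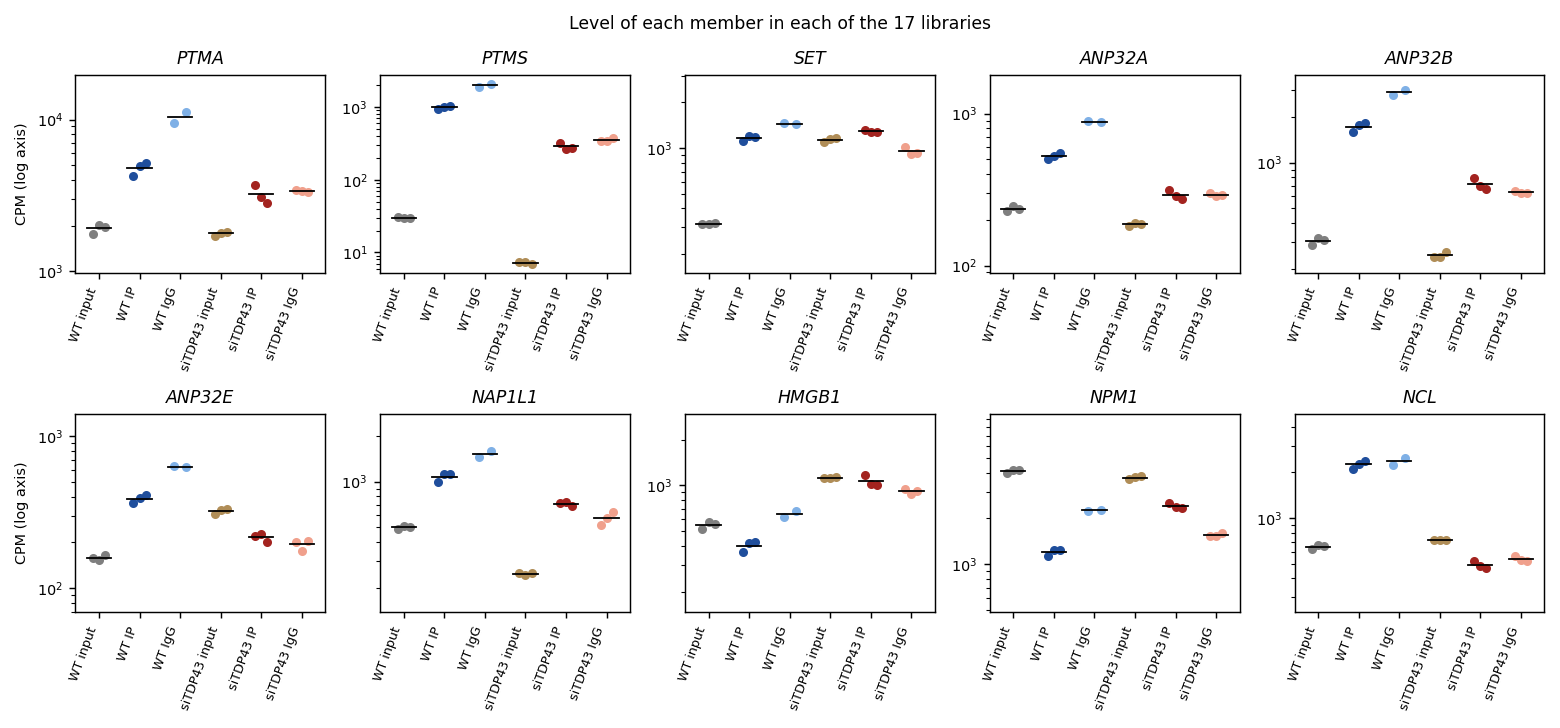
Level of each member in each of the 17 libraries, in CPM on log axes that differ between panels. Points are libraries and black lines are group means. WT IgG is the highest group for 8 of the 10 members, among them PTMA, which was chosen on it. HMGB1 and NPM1 are the exceptions. The share of all genes highest in WT IgG was not computed.

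The first comparison asked which members changed in the poly(A) RNA itself after the knock-down. All 10 passed the test in siTDP43 input over WT input, 4 higher and 6 lower, where 38.6% of 14036 tested genes were called higher and 40.6% lower at an adjusted p under 0.05 (edgeR quasi-likelihood test, Benjamini-Hochberg). With so many genes called, the count by itself does not set the members apart, and the sizes differed widely. In bulk RNA, a change in the mix of cells and a change of RNA per cell cannot be told apart.

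Among the histone chaperones, PTMS fell most. It read 31.0, 29.6 and 29.4 CPM in WT input and 7.38, 7.29 and 6.95 CPM in siTDP43 input. All 3 siTDP43 libraries lay below all WT libraries, a log2 change of -2.05 ± 0.09 (SE; edgeR adjusted p = 8.88e-19), or 4.15-fold lower. NAP1L1, which carries core histones and assembles nucleosomes, fell from 486, 509 and 505 CPM to 248, 242 and 248 CPM, 2.02-fold, and those groups did not overlap either. PTMA, the relative of PTMS, read 1755, 2036 and 1973 CPM against 1717, 1798 and 1815 CPM. Its groups overlapped, and its log2 change of -0.11 ± 0.04 (edgeR adjusted p = 0.0191) passed the threshold in this fit but not when WT input replicate 2, WT input replicate 3 or siTDP43 input replicate 1 was left out.

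SET rose most. It stood at 316, 317 and 322 CPM in WT input and at 1096, 1144 and 1162 CPM in siTDP43 input, 3.58-fold higher, with a log2 change of 1.84 ± 0.04 (edgeR adjusted p = 9.68e-28). Its partner in the inhibitor complex, ANP32A, went the other way, from 229, 245 and 236 CPM to 181, 189 and 189 CPM, a log2 change of -0.34 ± 0.04. ANP32B also fell slightly, by 0.30 on the log2 scale, while ANP32E, which removes a variant histone from nucleosomes, rose 2.04-fold. The 3 ANP32 relatives thus did not move in the same direction.

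HMGB1, a DNA-bending chromatin protein with an acidic tail, rose 2.05-fold, from 514, 570 and 560 CPM to 1122, 1111 and 1131 CPM. The nucleolar proteins changed little: NPM1 had a log2 change of -0.15 ± 0.03 and NCL of 0.15 ± 0.04. The direction of NCL turned to -0.025 once the trend of fold change with GC content was removed.

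**Figure D3:**
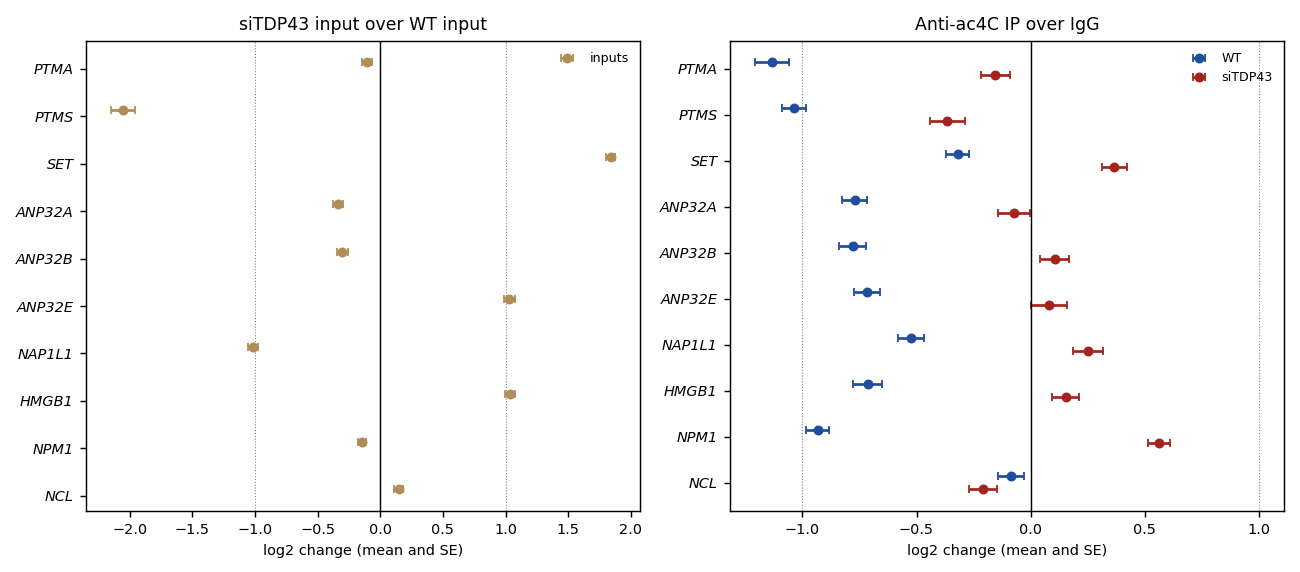
Log2 change with its standard error for each member, in siTDP43 input over WT input (left) and in anti-ac4C IP over IgG within each genotype (right). Dotted lines mark 2-fold; inputs range from -2.05 (PTMS) to 1.84 (SET), and in the right panel no member lies above 2-fold in either genotype.

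The second comparison set the WT pull-downs against WT input. Most members were higher in both pull-downs, with IgG as well as with the anti-ac4C antibody. In WT IP over WT input, 8 of 10 members were called higher and NPM1 lower, at an adjusted p under 0.05 and a fold above 2 in edgeR, where 30.2% of 14751 genes were called higher and 27.3% lower. The members' median log2 change was 1.31, beside 0.01 over all genes tested. In WT IgG over WT input, 7 of the 9 members other than PTMA were called higher and none lower, where 24.4% of genes were called higher and 36.6% lower; their median was 1.93, beside -0.39 over all genes. Of the 9 members, HMGB1 and NPM1 were the ones not called.

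PTMS had the largest enrichment. It read 29.4 to 31.0 CPM before the pull-down, 951, 1007 and 1020 CPM after WT IP, and 1913 and 2102 CPM with IgG. The log2 change over input was 5.06 ± 0.06 in IP (edgeR adjusted p = 3.22e-27) and 6.09 ± 0.06 in IgG (edgeR adjusted p = 3.00e-27). ANP32B came next, with 285, 318 and 310 CPM before the pull-down, 1580, 1757 and 1809 CPM with the anti-ac4C antibody, and 2798 and 3006 CPM with IgG. For both genes the 3 groups were apart, in the order input, IP, IgG. The log2 changes of ANP32B were 2.50 ± 0.06 in IP and 3.28 ± 0.06 in IgG.

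SET, ANP32A and ANP32E had log2 changes over input of 1.89, 1.16 and 1.30 in WT IP and of 2.21, 1.93 and 2.01 in WT IgG, with standard errors of 0.05 to 0.06. NAP1L1 had changes of 1.11 and 1.64. PTMA read 4261, 4924 and 5202 CPM in WT IP, a log2 change of 1.33 ± 0.07 over input (edgeR adjusted p = 6.68e-15). In WT IgG, the value by which it was chosen, it read 9460 and 11255 CPM.

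The nucleolar members split. NCL, at 627, 659 and 657 CPM before the pull-down, rose to 2114, 2282 and 2387 CPM with the anti-ac4C antibody and to 2243 and 2498 CPM with IgG, log2 changes of 1.81 ± 0.05 and 1.90 ± 0.06. NPM1 went down, from 4002, 4188 and 4182 CPM before the pull-down to 1125, 1245 and 1231 CPM after IP (log2 change -1.77 ± 0.05, edgeR adjusted p = 1.44e-20), while IgG at 2256 and 2264 CPM (-0.84 ± 0.05) was short of the 2-fold threshold. HMGB1 had changes of -0.44 ± 0.06 in IP and 0.27 ± 0.06 in IgG, both under 2-fold, and its value in IP turned to 0.53 with the GC trend removed. Over the 10 members, GC content of the exons ran from 35.6% in HMGB1 to 65.8% in PTMS. Its Spearman correlation with the log2 change was 0.90 in WT IP over input, against 0.36 over all genes tested. In WT IgG over input it was 0.79, against 0.10, and the 0.79 includes the value by which PTMA was chosen. These are correlations across genes, which share libraries and are no replicates, and the part of GC content in the enrichment was not tested.

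**Figure D4:**
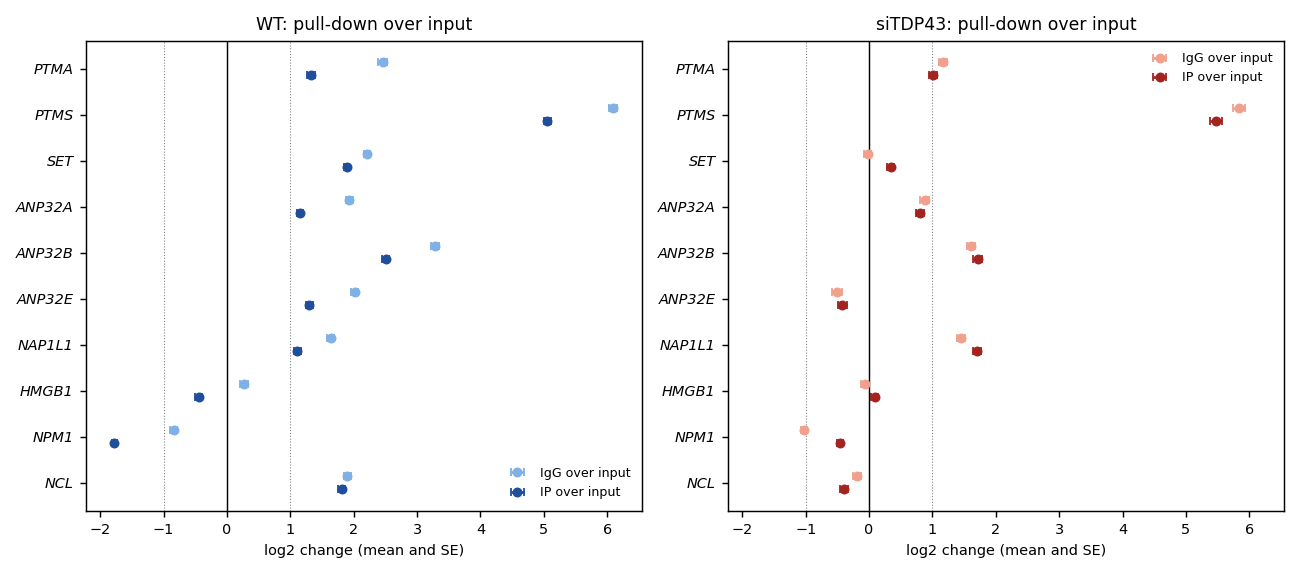
Log2 change of each pull-down over its own input, with its standard error, for the WT (left) and siTDP43 (right) libraries. Dotted lines mark 2-fold. In WT the IgG value is to the right of the IP value for the 9 members other than PTMA, which was chosen on WT IgG. PTMS lies above 5 in all 4 comparisons.

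The third comparison set the anti-ac4C antibody against IgG, and in WT none of these RNAs was higher in the anti-ac4C libraries. In WT IP over WT IgG, none of the 9 members other than PTMA was called higher, where 35.2% of genes were called higher, and PTMS was called lower, where 17.8% were. The 9 log2 changes ran from -1.04 ± 0.05 (PTMS) to -0.09 ± 0.06 (NCL), with a median of -0.72, beside 0.29 over all genes. For 8 of the 9 members every IgG library lay above every IP library, and the exception was NCL (edgeR adjusted p = 0.157). The share of all genes with such a gap was not computed, so the 8 do not set the members apart. The call of PTMS was just past 2-fold and was lost without WT IgG replicate 2 (log2 change -0.96) and with libraries scaled to total counts (-0.91). PTMA had a log2 difference of -1.13, given as a description. The study counted mRNAs as ac4C(+) from FPKM ratios, its moderate class being over 2-fold both over input and over IgG. Its high class asked for a larger fold over IgG. With the 2-fold rule put on the edgeR calls instead, none of the 9 members other than PTMA met it in WT and none of the 10 in siTDP43. The share of all genes that met it was not computed, so this count does not set the members apart. For PTMA in WT the choice on WT IgG bears on this rule, so it is not counted.

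In the siTDP43 libraries the enrichment over input was narrower. In siTDP43 IP over input, 4 of 10 members were called higher and none lower, where 26.8% of 12746 genes were called higher and 25.4% lower. With libraries scaled to total counts, 2772 genes were called higher and 4323 lower, against 3414 and 3239 here. The 4 were PTMS at 5.48 ± 0.09, ANP32B at 1.71 ± 0.06, NAP1L1 at 1.70 ± 0.07 and PTMA at 1.01 ± 0.06. PTMA was barely past 2-fold, and its call was lost under 6 other settings (0.66 to 0.98, among them DESeq2 at 0.93) and without siTDP43 input replicate 1 (0.97) or siTDP43 IP replicate 1 (0.90). In siTDP43 IgG over input the same 4 were called higher (PTMS 5.84, ANP32B 1.61, NAP1L1 1.45, PTMA 1.16), where 24.7% of genes were, and NPM1 was called lower at -1.02 ± 0.05, where 41% were. With total-count scaling 2367 genes were called higher and 6420 lower, against 3145 and 5227, and the calls of NAP1L1 and PTMA were lost. NPM1 lost its call when genes averaging under 50 counts were dropped (-0.90), and its value turned to 0.22 with the GC trend removed.

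PTMS stayed by far the most enriched member, with 323, 265 and 277 CPM after IP and 342, 346 and 372 CPM with IgG against 7.38, 7.29 and 6.95 CPM before the pull-down. SET, 2.21 above input in WT IgG, lay at -0.02 ± 0.06 in siTDP43 IgG, with 1012, 913 and 933 CPM against 1096, 1144 and 1162 CPM in input. NCL read 715, 713 and 719 CPM in siTDP43 input, 518, 481 and 466 CPM in IP and 564, 525 and 520 CPM in IgG. Both pull-downs of NCL were thus below input in every library, by under 2-fold.

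In siTDP43 IP over siTDP43 IgG none of the 10 members was called in either direction by edgeR, where 34% of genes were called higher and 15% lower. Their log2 changes ran from -0.36 ± 0.08 (PTMS) to 0.56 ± 0.05 (NPM1), with a median of 0.09, beside 0.33 over all genes. At an unadjusted p under 0.05 in edgeR, with no threshold on size, 7 of the 10 differed, and DESeq2 called none past 2-fold. The share of all genes at that looser rule was not computed, so the 7 do not set the members apart. The directions are not firm: all 10 turned under at least 1 alternative, for instance NPM1 to -0.26 with the GC trend removed and NCL to 0.00099 with total-count scaling.

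The last comparison tested the change of enrichment between the genotypes, as the interaction of pull-down and genotype in edgeR at an adjusted p under 0.05. The log2 change of IgG over input was lower in siTDP43 for all 9 members other than PTMA. Of 15165 genes, 37.4% were called lower and 27% higher. ANP32E changed most, by -2.72 ± 0.10 on the log2 scale, followed by SET at -2.43 ± 0.08, NCL at -2.29 ± 0.08, ANP32B at -1.88 ± 0.09 and ANP32A at -1.26 ± 0.09. HMGB1, PTMS, NAP1L1 and NPM1 had changes of -0.54 to -0.38, near the median of -0.48 over all genes. The median of the 9 members was -1.26. With the GC trend removed NAP1L1, HMGB1 and NPM1 turned to 0.68, 0.54 and 0.45, while the other 6 kept their direction and their call. PTMA had a difference of -1.50, as a description.

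The enrichment of IP over input changed in the same test for all 10 members, lower for 6 and higher for 4, where 36.3% of genes were called lower and 31.5% higher. NCL changed most, at -2.35 ± 0.08 (edgeR adjusted p = 6.32e-25): the IP was 3.51-fold over input in WT and 1.32-fold under it in siTDP43. ANP32E followed at -1.87 ± 0.09, SET at -1.69 ± 0.07, ANP32B at -0.94 ± 0.09, ANP32A at -0.50 ± 0.08 and PTMA at -0.47 ± 0.10. NPM1 went up, by 1.17 ± 0.07, and was the 1 called rise left with total-count scaling. The rises of NAP1L1 (0.44), HMGB1 (0.38) and PTMS (0.28) were not called with that scaling, and PTMS turned to -0.021.

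The difference of IP over IgG was higher in siTDP43 for 8 of the 9 members other than PTMA, by 0.73 to 1.55 on the log2 scale. Of all genes, 34.9% were called higher and 25.9% lower. The median of the 9 members was 0.83, beside 0.24 over all genes. The 8 lay at percentiles 58 (PTMS) to 69 (NPM1) of all genes tested. NPM1 changed most, at 1.55 ± 0.07, and NCL did not pass, at -0.07 ± 0.09 (edgeR adjusted p = 0.575). In WT the IP of NPM1 was 1.91-fold under IgG and in siTDP43 it was 1.48-fold over it, under 2-fold on both sides. For ANP32E, NAP1L1 and HMGB1, the 3 members with GC content under 40%, the change turned to -0.33, -0.39 and -0.31 with the GC trend removed. The siTDP43 IgG libraries held the fewest counts of all groups, and the part of depth in these values was not tested. The comparisons of each genotype share their input, IP and IgG libraries, so the 3 changes of a gene are not independent of each other.

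Across the 17 libraries PTMA, PTMS, ANP32A, ANP32B and NAP1L1 followed each other, with Pearson correlations in log2 CPM of 0.88 to 0.97. The value was 0.97 between ANP32A and ANP32B, and between PTMA and each of these. The values of PTMA include the WT IgG libraries on which it was chosen. SET had 0.30 to 0.55 with the genes named first, and HMGB1 was negative with each of them. HMGB1 was lowest against NCL, at -0.70. NPM1 was lowest against PTMS, at -0.81, and had negative values with 8 of the other 9 members, HMGB1 excepted. These correlations describe 17 libraries that fall into 6 groups. Of 10141 genes with a mean of at least 100 counts, those whose pattern was most like PTMA were ATP2B1 (r = 0.98), HOOK3, PPM1G, HIC2 and ZRANB1, and those most like the members' mean were HIC2 (r = 0.99), ATP2B1, NUCKS1, ZRANB1 and FBXO18.

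Among close relatives of the members, of 13 paralogues 12 were in the table and 7 were tested in the WT pull-downs. In WT IgG over input 3 were called higher and 1 lower, where 24.4% and 36.6% of all genes were, with a median of 0.42. NAP1L2, a neuronal relative of NAP1L1, had a log2 change of 2.52 ± 0.34, and NAP1L3 of -4.38 ± 0.54, both from low counts. In siTDP43 input over WT input HMGB3 rose by 1.75 ± 0.04 on the log2 scale, beside 1.04 for HMGB1, while HMGB2 had a change of -0.28 ± 0.04.

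The other histone chaperones, 27 genes without the members, also held strongly enriched RNAs. In WT IgG over input 12 were called higher and 5 lower, where 24.4% and 36.6% of all genes were, with a median of 0.65, beside -0.39 over all genes. CHAF1A, the large subunit of chromatin assembly factor 1, had a log2 change of 4.27 ± 0.06 and UBN1, of the HIRA complex, of 4.08 ± 0.07. In WT IP over input 10 were higher and 7 lower, where 30.2% and 27.3% of all genes were, led by the chromatin remodeller ATRX at 5.68 ± 0.07. Unlike the members, ATRX was also 3.996 ± 0.07 over WT IgG. The enrichment of IP over input was lower in siTDP43 for 18 of the 27 and higher for 5, where 36.3% and 31.5% of all genes were called, with ATRX at -4.20 ± 0.10.

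Of 14 other nucleolar proteins, 5 were higher and 3 lower in WT IP over input, near the 30.2% and 27.3% of all genes, and 6 were higher and 1 lower in WT IgG over input, where 24.4% and 36.6% of all genes were. TCOF1, the treacle ribosome biogenesis factor, had log2 changes of 5.16 ± 0.05 and 2.79 ± 0.05, and its enrichment in IP over input changed by -5.07 ± 0.09 in siTDP43. GNL3, or nucleostemin, was lower in WT IP over input, at -1.47 ± 0.05, as NPM1 was. Among 15 tested subunits and regulators of protein phosphatase 2A, the enzyme that SET and ANP32A inhibit, 5 rose and 9 fell in siTDP43 input over WT input, where 38.6% and 40.6% of all genes did. PPP2R1B, a scaffold subunit, rose by 1.97 ± 0.05 on the log2 scale and PPP2R5E, a regulatory subunit, changed by -2.51 ± 0.16. Of 7 other chromatin-binding HMG proteins, HMGN5, which has an acidic tail, was the most enriched in WT IP over input, at 6.85 ± 0.10, and was 2.31 ± 0.09 over WT IgG.

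The acidic runs themselves were then followed in genes that are not members. This grouping was made after values of the members had been seen, and it is given as a description. In both WT pull-downs the median enrichment was higher in each class with a longer run. In WT IgG over input it was -0.65 in 4574 genes whose longest run was 0 to 2 codons, -0.29 in 5997 genes with 3 to 4, 0.18 in 959 genes with 5 to 6, 0.72 in 394 genes with 7 to 9 and 1.04 in 200 genes with 10 or more. In WT IP over input the same 5 medians were -0.33, 0.03, 0.43, 0.79 and 1.46. The quartiles overlapped between all neighbouring classes. The share of acidic codons in the whole coding sequence went little with the enrichment. Over 12134 genes, members included, its Spearman correlation with the log2 change was 0.014 in WT IP over input. In WT IgG over input it was 0.10.

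Of the 200 genes with a run of at least 10 acidic codons, 61.5% were called higher in WT IP over input and 50.5% in WT IgG over input, against 28.6% and 24.2% of the other 11924 genes with a coding sequence. In WT IP over WT IgG the shares were 36% and 33.5%. In siTDP43 the order was not seen over the whole range: the medians for IgG over input were -0.48, -0.69, -0.61, -0.09 and 0.22. Genes with such runs were richer in GC, with a median of 53.7% against 49.7%, and with the GC trend removed their median was 1.21 in WT IP over input and 1.49 in WT IgG over input, against -0.11 and 0.11 in the other genes. Over all genes tested, the Spearman correlation of exon length with the log2 change was 0.20 in both WT IP and WT IgG over input. In siTDP43 it was -0.055 for IP over input and -0.11 for IgG over input. The part of gene length, level and other features that may go with acidic runs was not tested.

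**Figure D5:**
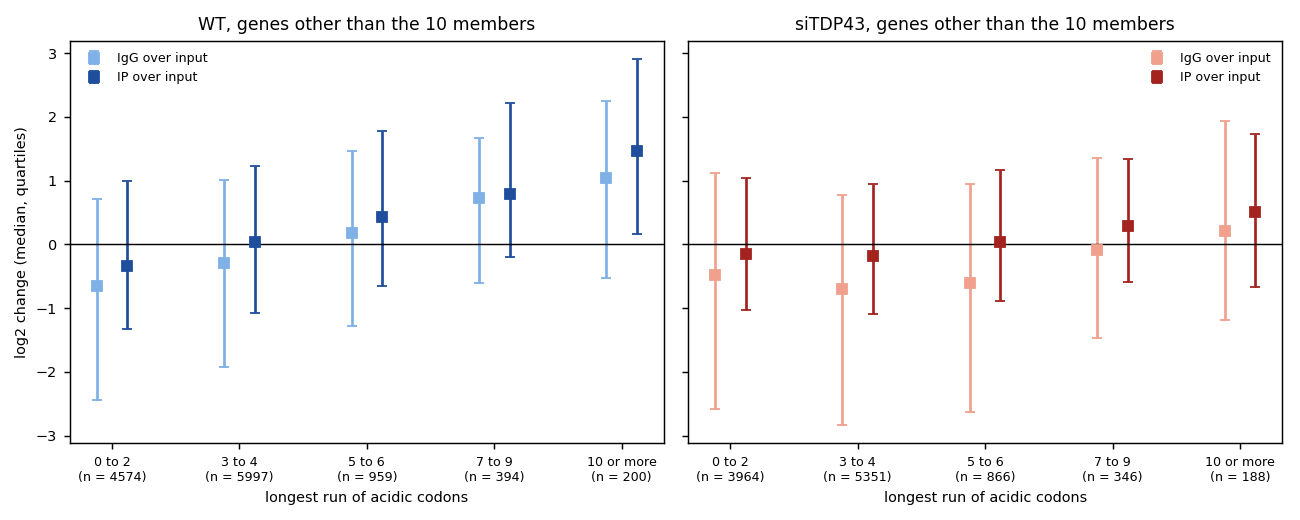
Log2 change of pull-down over input for genes other than the 10 members, in 5 classes of the longest unbroken run of glutamate and aspartate codons, with n genes per class. Squares are medians and bars are quartiles; the WT medians (left) go from -0.65 to 1.04 in IgG and from -0.33 to 1.46 in IP, and the siTDP43 medians (right) span less.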

How the data were processed

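Poly(A) RNA of HEK293T cells was measured in 17 libraries, grouped and numbered by the sample titles. The authors made Smart-seq2 libraries without molecular identifiers, trimmed reads with Trim Galore 0.6.7, aligned them with STAR 2.7.10a and counted uniquely aligned reads with featureCounts 2.0.2. The deposited table holds these raw counts per gene, unnormalised, with other deposited columns for exon positions and length. The methods name hg19 for HEK293T cells while the labels' build field names mm10; the exon positions fitted hg19 (GRCh37). Annotation release and strand setting are not given in the sources used here. Of the counts between 1 and 20, 81.3% to 95.9% were even, a pattern that single counting of both mates would give. Unique alignment can lose reads of genes with processed copies: NPM1 has 49 named pseudogenes, HMGB1 47, SET 19 and PTMA 12, and PTMA exons overlap MIR1244 genes on the same strand.

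Counts were tested with edgeR 4.0.16 (R 4.3.3; filterByExpr, minimum count 10; TMM; quasi-likelihood F test) within the 6 input libraries, within each genotype, and over all libraries for changes between genotypes. The standard error is the log2 change divided by the root of F. An enrichment was called at an adjusted p under 0.05 and a fold above 2, and inputs and changes at an adjusted p under 0.05. Alternatives were DESeq2 1.42.0, other scalings and filters, limma 3.58.1 on log2(FPKM + 1), halved counts, a replicate block, removal of a GC trend, all libraries in 1 fit, and each library left out. Each fit was tested on simulated data. Replicates differed by more than sampling noise (chi-square per degree of freedom 3.26 to 9.43), so none was a duplicate. The gene lists were paralogues, other histone chaperones, nucleolar proteins, phosphatase 2A subunits and HMG proteins; of each list the 2 largest rises and 2 largest falls called in a comparison could be named. The 5 genes most like PTMA and the members' mean were ranked by Pearson correlation of log2 CPM. The members and lists were chosen with earlier results of these data known. Pull-down levels are relative within each library, and the tests cover spread between libraries and counting error only.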

Additional observations from a re-analysis of the deposited data

Results flagged for a closer look

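Each value below is a change of enrichment between siTDP43 and WT whose edgeR interaction term passed an adjusted p of 0.05, on the log2 scale.

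For IP over input, NCL had -2.35, ANP32E -1.87, SET -1.69, ANP32B -0.94, ANP32A -0.50 and PTMA -0.47, while NPM1 had 1.17, NAP1L1 0.44, HMGB1 0.38 and PTMS 0.28. The log2 change over input was lower in siTDP43 for 6 of these 10 genes. The IP level of SET itself was not lower, at 1121, 1208 and 1187 CPM in WT and 1321, 1276 and 1275 CPM in siTDP43. The input of SET rose from 316, 317 and 322 CPM to 1096, 1144 and 1162 CPM. NPM1, which was below input in both genotypes, came closer to it.

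For IgG over input, ANP32E had -2.72, SET -2.43, NCL -2.29, ANP32B -1.88, ANP32A -1.26, HMGB1 -0.54, PTMS -0.45, NAP1L1 -0.39 and NPM1 -0.38. The IgG libraries carry no anti-ac4C antibody, so this difference between the genotypes was measured without it.

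For IP over IgG, NPM1 had 1.55, ANP32B 0.94, HMGB1 0.92, ANP32E 0.85, NAP1L1 0.83, ANP32A 0.75, SET 0.74 and PTMS 0.73. In WT these 8 were lower in IP than in IgG, and in siTDP43 6 of them were a little higher in IP.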

How the results depend on the processing

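Of 1810 values of single members under the alternatives, 1692 kept their direction and their call, 61 turned sign, 33 lost and 14 gained a call, and 10 descriptive values of PTMA moved by more than their spread. Of the 61, 45 arose from removing the trend of log2 change with GC content over all genes (GC below) or over genes with a mean of at least 500 counts (GC500, chosen after the data were seen). The cause was not tested. The WT enrichments called over input kept their direction and call under every alternative.

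Inputs: NCL turned to -0.025 with GC and -0.23 with GC500. WT IP over input: HMGB1 turned to 0.53 and 0.62 with GC and GC500. WT IP over IgG: with GC500 NAP1L1 turned to 0.043 and NCL to 0.19, and NCL to 0.042 with total-count scaling and 0.043 with limma. siTDP43 IP over input: ANP32E turned to 0.055 and 0.20 with GC and GC500, NPM1 to 0.036 with GC500, and HMGB1 to -0.25 with total-count scaling, -0.25 with limma and -0.068 with all 17 libraries in the fit.

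siTDP43 IP over IgG: with total-count scaling PTMA turned to 0.053, ANP32A to 0.13 and NCL to 0.00099, and with limma to 0.048, 0.13 and 0.0016. With GC, SET turned to -0.38, ANP32B to -0.60, ANP32E to -0.96, NAP1L1 to -0.83, HMGB1 to -0.94 and NPM1 to -0.26. With GC500, PTMS turned to 0.12, ANP32B to -0.025, ANP32E to -0.42, NAP1L1 to -0.29 and HMGB1 to -0.39.

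siTDP43 IgG over input: with a mean of at least 50 counts SET turned to 0.10 and HMGB1 to 0.060. With GC, SET turned to 0.95, ANP32E to 1.02, HMGB1 to 1.54, NPM1 to 0.22 and NCL to 0.86, and with GC500 SET, ANP32E, HMGB1 and NCL turned to 0.43, 0.62, 1.13 and 0.34.

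Change of IP over input: PTMS turned to -0.021 with total-count scaling, -0.18 with limma and -0.15 with GC500, where NAP1L1 turned to -0.078 and HMGB1 to -0.16. Change of IP over IgG: with GC, ANP32E, NAP1L1 and HMGB1 turned to -0.33, -0.39 and -0.31, and with GC500 to -0.37, -0.46 and -0.38, with ANP32A at -0.010; NCL turned to 0.0027 without WT IgG replicate 1. Change of IgG over input: NAP1L1, HMGB1 and NPM1 turned to 0.68, 0.54 and 0.45 with GC and to 0.38, 0.23 and 0.18 with GC500.

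Counts of members called moved as follows. In WT IP over IgG, of the 9 other than PTMA, 1 was lower, but 0 with total-count scaling or limma, 3 with GC, and 0 to 1 with a library left out. Of all 14751 genes 2629 were lower, but 2312 with total-count scaling, 1684 with limma and 4267 with GC. In siTDP43 IgG over input 4 were higher, but 2 with total-count scaling or limma and 7 with GC. There 1 was lower, but 2 with total-count scaling or limma and 0 with a mean of at least 50 counts, GC or GC500. Of all 12746 genes 3145 were higher, but 2367 with total-count scaling, 1866 with limma and 4314 with GC. Lower were 5227, but 6420, 4649 and 3819 in that order and 4579 with GC500. With a mean of at least 50 counts, 3730 of 10217 were lower. In the change of IP over input 4 were higher, but 1 with total-count scaling, limma or GC500. Of all 15165 genes 4770 were higher, but 3812, 3654 and 4082 in that order. In the change of IP over IgG, of the 9, 8 were higher and 0 lower, but 4 and 4 with GC or GC500, and 1 was lower with DESeq2 size factors or the DESeq2 Wald test. Of all genes 5293 were higher and 3923 lower, but 4697 and 4476 with GC and 4382 and 4789 with GC500. With DESeq2 size factors 4429 were lower, and with the DESeq2 Wald test 5432. In the change of IgG over input, 0 of the 9 were higher, but 3 with GC or GC500. Of all genes 4098 were higher, but 5175 with GC and 4455 with GC500. Leaving out a library gave 3 to 4 members higher in the change of IP over input and in siTDP43 IP over input, and 5 to 6 lower between inputs.

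Replicate numbers did not pair the libraries: 1 of 40 same-numbered pairs had a correlation of residuals over 0.1 (range -0.04 to 0.10). With the replicate number as a block, none of 100 member values changed call or direction; PTMS was at 6.10 in WT IgG over input.

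Over all genes, total-count scaling moved the median in siTDP43 IgG over input from -0.58 to -1.13 and in siTDP43 IP over input from -0.09 to -0.43. Limma called fewer: 2508 lower (against 4026) in WT IP over input, 3318 higher (5186) and 1684 lower (2629) in WT IP over IgG, 3379 lower (5400) in WT IgG over input, 1803 higher (3414) in siTDP43 IP over input, 1052 lower (1913) in siTDP43 IP over IgG and 1866 higher (3145) in siTDP43 IgG over input. GC called 4267 and 3697 lower in IP over IgG of WT and siTDP43, against 2629 and 1913. The siTDP43 IgG libraries held 3013989 to 3436811 counts, the fewest of the 6 groups.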
